A study of Mus musculus with 18 samples.

Results

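The cytosolic ribosomal protein genes encode the proteins of the large (Rpl) and small (Rps) subunits of the ribosome that translates nuclear messages. They were taken as every row of the deposited count table whose symbol is Rpl or Rps followed by a number and at most one of the letters a, x or y, together with Rplp0, Rplp1, Rplp2 and Rpsa, without pseudogenes. The rule found 76 genes among the 22238 rows, 45 of the large and 31 of the small subunit, and all 76 were among the 15494 genes kept by the filter on low counts. Total RNA from homogenised whole uterus was sequenced from adult CD-1 mice, an outbred stock, and all animals had been ovariectomized. The 6 groups of 3 libraries were doxorubicin (DOX) with estradiol (E2), phosphate-buffered saline (PBS) in place of DOX with E2, DOX with progesterone (P4), PBS with P4, DOX with OIL and PBS with OIL. Doxorubicin is an anthracycline used in chemotherapy, and the series asks how it alters the response of the uterus to estrogen. Doses, times and exact ages are not given in the labels, and no label says that the libraries of a group came from different mice. The p-values therefore cover only how far these libraries differ, which may be technical.

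A ribosome carries one copy of most of its proteins, so the genes that encode them are usually read out in close proportion to each other. Their messages in mammals begin with a run of pyrimidines at the 5′ end, the terminal oligopyrimidine (TOP) motif, through which mTORC1 and the binding protein LARP1 set how many of them are translated. In the uterus estradiol is known to raise ribosome production as part of a growth response, and the question here was whether the message of the 76 genes moves as one block with E2, P4 and DOX, and which genes leave it.

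The libraries held between 18042357 and 39783785 counts, and no member had fewer than 923 counts in any library. Markers of the uterus (such as Esr1, Pgr and Hoxa10) were detected in every library, with a mean log2 CPM of 6.25 to 6.83 over 8 genes. CPM is the read count scaled to library size, here with TMM factors, which trim away extreme genes. One library stood apart. In PBS OIL replicate 1 the members took 9.46% of all counts, against 5.82% and 6.92% in the other PBS OIL libraries and 4.66% to 6.59% in the 15 libraries of the other groups. Comparisons that rest on the PBS OIL group are therefore also given without it, by their counts and medians and by the calls that ended. The reads of a ribosomal protein gene can also fall on its processed pseudogenes. A blastn search of GENCODE M21 transcripts found a pseudogene with at least 95% identity over at least 80% of the coding sequence for 72 of the 76 members, and 42 members had such copies as rows of the count table, with counts of up to 82.1% of the parent's (Rpl29). How reads with several matches were assigned is not given in the sources used here, so the levels of these members are uncertain to that extent. The strand setting of the counting is not given either, and exons of 17 members overlap a gene on the other strand.

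The sequences around the annotated start are shown for members that left the block under E2, as described below, since the TOP run lies at the start of the message. Rps2, Rpl27, Rplp0, Rpl7a, Rpl15, Rpl24 and Rpl18 rose against the other members in both arms (with DOX and with PBS), and Rps21, Rps20 and Rpl30 fell. RefSeq (build GRCm38.p6) gave a promoter for 56 of the 76 members. Each line gives 10 bases before and 30 bases from the annotated start, 5′ to 3′, with capitals for the longest run of C or T where it reached 6 bases. Most of these genes have several annotated starts (55 of the 56 in GENCODE M21 and 8 in RefSeq), and the first RefSeq start was used. It was a transcript start of GENCODE M21 to the base in 17 members and lay at most 95 bases from one in the others, as for Rpl27 (53 bases), Rpl15 (16) and Rpl7a (10), so the runs are those at this one start. The GENCODE genes of Rps2 and Rpl18, and by fewer bases those of Rpl15 and Rpl7a, begin farther upstream, with other transcripts.
Rps2 (chr17:24720053-24720092, plus strand): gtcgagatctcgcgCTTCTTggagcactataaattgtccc
Rpl27 (chr11:101442235-101442274, plus strand): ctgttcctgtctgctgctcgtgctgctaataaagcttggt
Rplp0 (chr5:115559457-115559496, plus strand): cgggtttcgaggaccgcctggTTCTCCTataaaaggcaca
Rpl7a (chr2:26910797-26910836, plus strand): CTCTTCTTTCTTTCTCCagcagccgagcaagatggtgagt
Rpl15 (chr14:18270957-18270996, minus strand): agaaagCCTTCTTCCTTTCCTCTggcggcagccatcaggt
Rpl24 (chr16:55966265-55966304, plus strand): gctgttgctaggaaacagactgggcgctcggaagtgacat
Rpl18 (chr7:45718061-45718100, plus strand): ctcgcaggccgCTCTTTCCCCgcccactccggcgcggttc
Rps21 (chr2:180257369-180257408, plus strand): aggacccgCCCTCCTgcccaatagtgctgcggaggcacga
Among the members that rose, the runs of Rpl7a and Rpl15 in the window were 17 bases long and that of Rpl18 10 bases. The run of Rpl7a begins at the first base of its window and may be longer. The runs of Rplp0, Rps2, Rpl27 and Rpl24 were 7, 6, 5 and 3 bases. The run of Rps21, which fell, was 7 bases. A run of at least 8 pyrimidines on the sense strand was found in this window in 23 of the 56 members (41.1%) and in 14.3% of the 27025 genes of the table. The letters TATAAA, which were looked for after these windows had been read, stood on the sense strand of the window in 3 members (Rps2, Rplp0 and Rpl36a; 5.4%) and in 0.7% of all genes. Over the full 300 bases and both strands they stood in 5 members (8.9%) and in 14.2% of all genes. In the printed windows of Rps2 and Rplp0 these letters lie after the annotated start. Where these messages begin was not tested, so a short run here does not show that a message lacks a TOP motif. The table had no entry for Rps20 (GRCm38, chr4:3831334-3835665, minus strand) and Rpl30 (chr15:34440505-34443640, minus strand), whose positions are those of GENCODE M21.

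**Figure D1:**
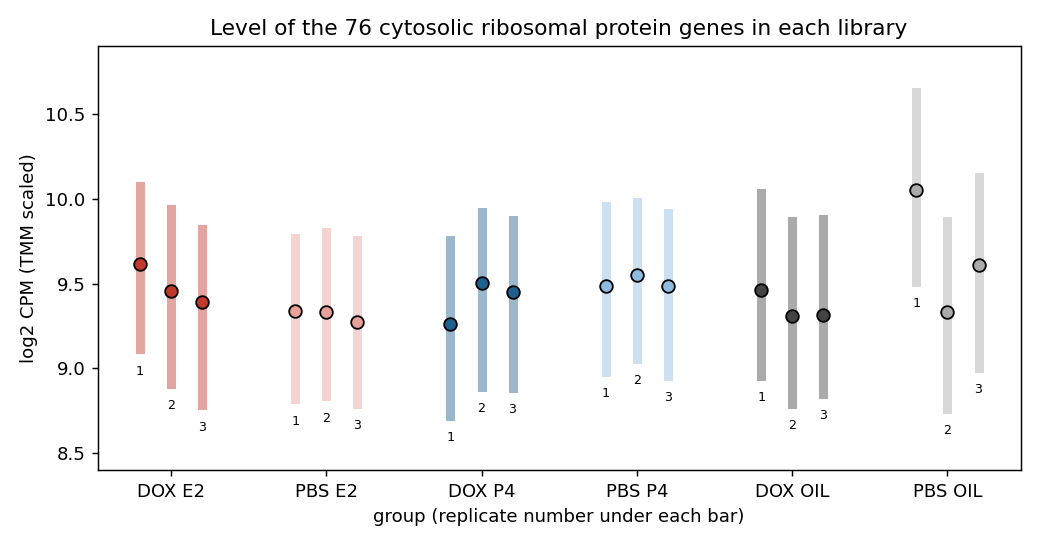
Level of the 76 members in each of the 18 libraries, as log2 CPM on the vertical axis, with the median member as a point and the interquartile range of the members as a bar, by group and replicate. The median lies between 9.26 and 9.61 in 17 libraries and at 10.05 in PBS OIL replicate 1.

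The members moved together from library to library by a small amount. The median member stood at 9.61, 9.45 and 9.39 log2 CPM in the DOX E2 libraries and at 9.34, 9.33 and 9.27 in the PBS E2 libraries. It stood at 9.26, 9.50 and 9.45 in the DOX P4 libraries and at 9.48, 9.55 and 9.49 in the PBS P4 libraries. Under OIL it was 9.46, 9.31 and 9.32 in the DOX libraries and 10.05, 9.33 and 9.61 in the PBS libraries. The levels of the groups were close, and the PBS OIL libraries lay farthest from each other. Between libraries of the same group, 79.7% of the variance of the members was one shift common to all of them, and without PBS OIL replicate 1 this was 59.3%. Between the group means the common shift held 41.1% of the variance, or 20.6% without that library, and the rest was change of members against each other. The within-group SD of the library median was 0.17, and the SD of a member's level relative to that median was 0.06 for the median member. By group, the SD of the library median was 0.36 in PBS OIL and 0.03 to 0.13 in the others, so the pooled value leans on PBS OIL. Over all libraries the proportions among the members were thus measured more tightly than the level of the block, and both are described below. In whole tissue, fewer cells of a type and less RNA per cell cannot be told apart.

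The members did not rise with E2 as a block in either arm. Of the 76, 19 passed the test of E2 against OIL in the DOX arm. Of these 16 rose and 3 fell, where 72.6% of all tested genes were called, 35.1% higher and 37.5% lower. The median log2 change of the members was 0.00, and 38 were positive and 38 negative. With PBS, 46 members (60.5%) fell and none rose, against 61.4% of all tested genes called, 31.9% lower and 29.6% higher. At an unadjusted p under 0.05 the number that rose was also 0. The median was -0.40, and 72 members were negative. The median over all tested genes was -0.08 in the DOX arm and -0.09 in the PBS arm. Leaving out PBS OIL replicate 1 left the PBS arm with 15 members lower and 2 higher, with a median of -0.18, where 58.1% of all tested genes were called. Without PBS OIL replicate 2 that arm had 63 calls, and without DOX E2 replicate 1 the DOX arm had 11. The choice of scale also moved the zero line. With upper quartile scaling the median of all genes was -0.30 in the DOX arm and -0.29 in the PBS arm, and with total counts it was -0.39 and -0.28. In the DOX arm the calls were then 6 higher and 19 lower (upper quartile) or 4 higher and 39 lower (total counts). The direction of the calls in that arm thus depends on the scale, on which the median of all genes moved too. The shares of all tested genes called under these scalings are not given here, nor those without PBS OIL replicate 2 or DOX E2 replicate 1. Relative to the median of all genes the members' median was 0.08 in the DOX arm under each of these scalings, and between -0.31 and -0.30 in the PBS arm, or -0.08 there without PBS OIL replicate 1.

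The members that rose under E2 in the DOX arm were led by Rps2, Rpl27, Rplp0 and Rpl7a. Rps2 (GRCm38, chr17:24718116-24721929, plus strand) encodes a small subunit protein near the path by which the message enters the ribosome. Rps2 had 851, 709 and 672 CPM in the DOX E2 libraries and 420.3, 439 and 383 CPM in the DOX OIL libraries. In the other arm it had 572, 418 and 466 CPM in the PBS E2 libraries and 526, 339 and 398 CPM in the PBS OIL libraries. The DOX libraries did not overlap between E2 and OIL, and the PBS libraries did. The log2 change of Rps2 was 0.85 ± 0.15 in the DOX arm (SE, edgeR adjusted p = 8.11e-05) and 0.21 ± 0.15 in the PBS arm (edgeR adjusted p = 0.235). Rpl27, a large subunit protein, had 426, 363 and 341 CPM in the DOX E2 libraries and 230.5, 221 and 228 CPM in the DOX OIL libraries, a log2 change of 0.74 ± 0.13 (edgeR adjusted p = 9.82e-05). With PBS the change of Rpl27 was 0.14 ± 0.13 (edgeR adjusted p = 0.349). Rplp0, the base of the stalk that calls elongation factors to the ribosome, changed by 0.66 ± 0.14 in the DOX arm and Rpl7a, a large subunit protein whose introns host snoRNA genes, by 0.66 ± 0.12. The lowest of the DOX arm were Rps21 at -0.44 ± 0.17, Rps4x at -0.39 ± 0.14 and Rps20 at -0.35 ± 0.15, all called, and Rpl30 at -0.33 ± 0.21, which was not. The 3 calls ended in 4, 3 and 5 of the 6 fits in which a library of the arm was missing. Of the PBS arm the highest were Rps2, Rpl27, Rpl7a at 0.07 ± 0.12 and Rpl24 at 0.00 ± 0.12, none of them called. The lowest there were Rpl30 at -1.06 ± 0.21, Rps21 at -0.81 ± 0.17, Rps20 at -0.79 ± 0.15 and Rpl37a at -0.64 ± 0.16, all called. These 4 kept their calls without PBS OIL replicate 1, at -0.73, -0.56, -0.56 and -0.37.

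A member's departure from the block was tested by scaling the libraries on the 76 members themselves (the median of ratios), so that the edgeR test asks whether a gene changed against the median member. With DOX, 24 members departed under E2, 15 upward and 9 downward (31.6% of members, against 64.1% of all tested genes called on this scale, 29.5% higher and 34.7% lower). With PBS, 11 departed, 8 upward and 3 downward (14.5%, against 51.2% of all tested genes, 36.9% higher and 14.3% lower). All 11 of the PBS arm were among the 24 of the DOX arm and had the same direction, which is 100% of the first list and 45.8% of the second. The arms share no library, but they share the fit, its estimate of the spread and the scaling. With only the groups compared in the fit, no departure was called in the PBS arm. The overlap and the correlation of the arms were not computed over all tested genes. Among the members upward in both arms were Rps2, Rpl27, Rpl7a, Rplp0, Rpl24, Rpl15 and Rpl18, and downward in both were Rps21, Rps20 and Rpl30. Across the 76 members the changes in the arms had a Pearson r of 0.88 and a Spearman rho of 0.86, a description in which the members share libraries. Leaving out PBS OIL replicate 1 gave 39 departures in the DOX arm (24 up, 15 down) and 13 in the PBS arm (9 up, 4 down). Leaving out any 1 library of the arm gave 14 to 19 in the DOX arm, lowest without DOX E2 replicate 1, and 5 to 13 in the PBS arm, lowest without PBS E2 replicate 1. DESeq2 called 42 departures in the DOX arm and 19 in the PBS arm. The shares of all tested genes called in these alternative fits are not given here.

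**Figure D2:**
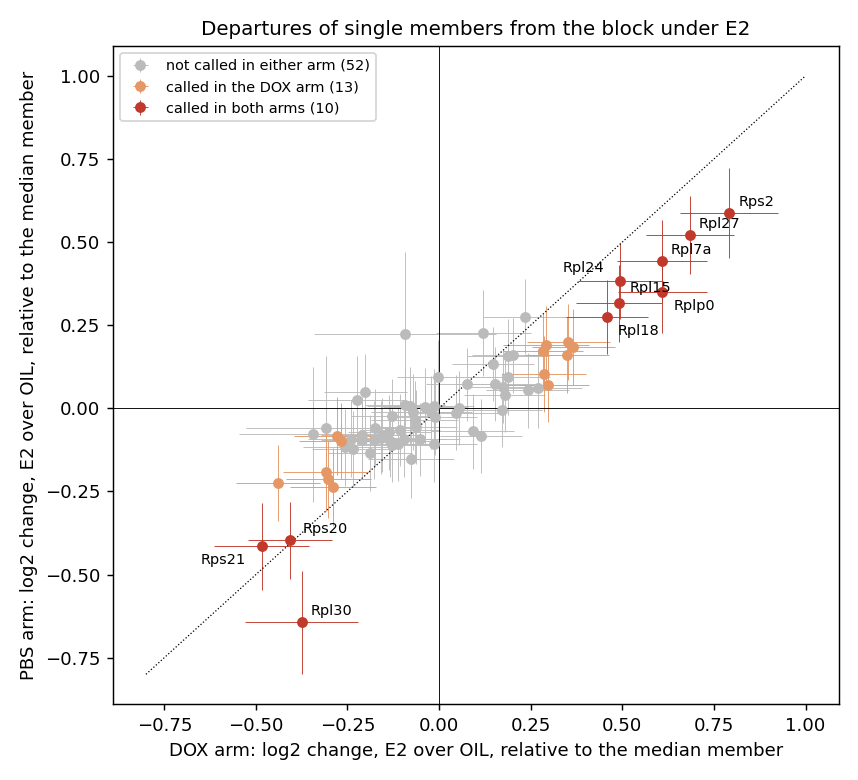
Change of 75 members under E2 relative to the median member, with the DOX arm on the horizontal and the PBS arm on the vertical axis (log2, bars are SE, dotted line marks equal change). The 10 members drawn that were called in both arms lie in the upper right and lower left corners, from Rps2 at 0.79 and 0.59 to Rps21 at -0.48 and -0.42 and Rpl30 at -0.37 and -0.64.

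The spread of the departures differed between groups. For Rps2 the SD between libraries, relative to the median member, was 0.06 in DOX E2 and 0.22 in PBS E2, against 0.12 in DOX OIL and 0.04 in PBS OIL. Relative to the median member of its library, Rps2 stood at 0.12, 0.02 and 0.00 log2 units in the DOX E2 libraries and at -0.74, -0.53 and -0.74 in the DOX OIL libraries. It stood at -0.18, -0.62 and -0.41 in the PBS E2 libraries and at -1.01, -0.92 and -0.97 in the PBS OIL libraries, so neither arm overlapped, and PBS OIL replicate 1 lay with its group on this measure. The departure of Rps2 was 0.79 ± 0.13 in the DOX arm (edgeR adjusted p = 5.8e-05) and 0.59 ± 0.13 in the PBS arm (edgeR adjusted p = 0.0014). Rpl27 stood at -0.88, -0.95 and -0.97 in the DOX E2 libraries and at -1.61, -1.52 and -1.49 in the DOX OIL libraries, a departure of 0.68 ± 0.12 (edgeR adjusted p = 7.4e-05). With PBS it stood at -0.97, -1.27 and -1.24 under E2 and at -1.74, -1.61 and -1.64 under OIL, a departure of 0.52 ± 0.12 (edgeR adjusted p = 0.0013). Without E2, Rpl27 averaged -1.53 ± 0.04 in the DOX P4, -1.53 ± 0.06 in the PBS P4, -1.54 ± 0.06 in the DOX OIL and -1.67 ± 0.07 in the PBS OIL libraries (SD, n = 3 each). Rps20, a small subunit protein, stood at -0.26, -0.37 and -0.47 in the DOX E2 libraries and at 0.09, 0.10 and 0.17 in the DOX OIL libraries. It stood at -0.42, -0.18 and -0.31 in the PBS E2 libraries and at 0.13, 0.09 and 0.09 in the PBS OIL libraries. Its departure was -0.41 ± 0.12 in the DOX arm and -0.40 ± 0.12 in the PBS arm (edgeR adjusted p = 0.0051 and 0.0081). Rps20 was thus below 0 in the 6 E2 libraries and between 0.04 and 0.17 in the 12 others. Rpl30, a large subunit protein, averaged -1.25 ± 0.19 in the DOX E2 libraries and -0.81 ± 0.22 in the DOX OIL libraries (SD, n = 3 each), and -1.20 ± 0.05 in the PBS E2 libraries against -0.55 ± 0.14 in the PBS OIL libraries. Its departure in the DOX arm lay between -0.50 and -0.29 when a library of the arm was missing, and was no longer called in 4 of those 6 fits.

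**Figure D3:**
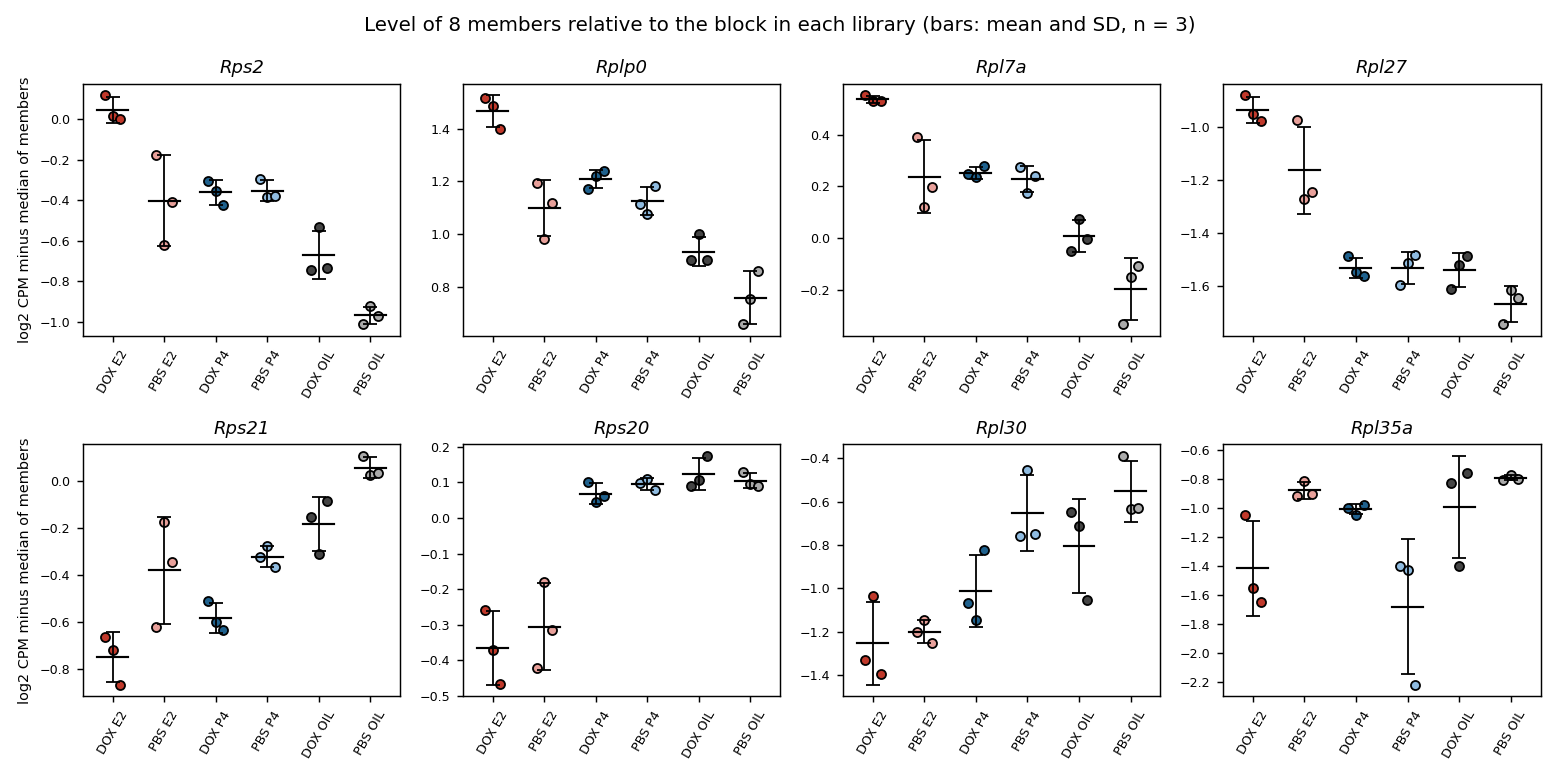
Level of 8 members relative to the median of the 76 in each library (log2 units), by group, with the mean and SD of 3 libraries. Rps2, Rplp0 and Rpl7a are highest in DOX E2 and lowest in PBS OIL, Rpl27 and Rps20 part the E2 groups from the other 4, and Rpl35a has a low library at -2.22 in PBS P4.

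Fewer members were called for P4 than for E2. With DOX, 1 member (1.32%) rose in the comparison of P4 with OIL and none fell, against 29.8% of all tested genes called, 14.7% higher and 15.1% lower, and the median was -0.01. That member was Rpl15, a large subunit protein, with 346, 386 and 376 CPM in the DOX P4 libraries and 293, 306 and 290.2 CPM in the DOX OIL libraries, a log2 change of 0.32 ± 0.10 (edgeR adjusted p = 0.031). The call ended in 5 of 6 fits in which a library of the arm was missing. Rps26 (0.36 ± 0.14), Rps2 (0.35 ± 0.15) and Rplp0 (0.32 ± 0.14) were the other members with the highest values. Rps27 (-0.40 ± 0.16), Rpl36 (-0.36 ± 0.15), Rps21 (-0.36 ± 0.17) and Rps19 (-0.33 ± 0.17) had the lowest, and none of these 7 was called. Without PBS OIL replicate 1, which lies outside this comparison but shares its estimate of the spread, 6 members rose and 4 fell. In that fit 31.4% of all tested genes were called, 16.1% higher and 15.3% lower. In the PBS arm 6 members (7.89%) were called, 1 up and 5 down, against 31.8% of all tested genes, 16.2% higher and 15.6% lower, with a median of -0.20. Rps2 rose by 0.44 ± 0.15, a call that ended in 5 of 6 fits in which a library of the arm was missing. Rpl15 (0.28 ± 0.10), Rpl7a (0.25 ± 0.12) and Rps26 (0.23 ± 0.14) followed it without a call. Rpl35a (-1.02 ± 0.26), Rps21 (-0.57 ± 0.17), Rpl9 (-0.53 ± 0.14), Rpl12 (-0.45 ± 0.15) and Rps15 (-0.44 ± 0.15) fell. The median was 0.03 without PBS OIL replicate 1, and the calls were 4 higher (Rps2, Rpl15, Rps26 and Rpl7a) and 2 lower (Rpl35a and Rpl9). Of all tested genes 26.6% were then called. There were 35 calls and a median of -0.34 without PBS OIL replicate 2. With total counts in place of TMM the calls were 13 lower and 1 higher in the PBS arm and 3 lower in the DOX arm. The shares of all tested genes called with total counts and without PBS OIL replicate 2 are not given here. Markers of other cells moved in the same comparisons. Of 9 smooth muscle markers 6 rose in each arm and none fell, with medians of 0.83 (DOX) and 1.11 (PBS) and a mean log2 CPM of 9.91 to 10.31 in the PBS P4 libraries and 8.94 to 9.20 in the PBS OIL libraries. Of 7 leukocyte markers none was called with DOX (median -0.63) and 3 fell with PBS (median -0.83), with a mean log2 CPM of 3.15 to 3.82 in the PBS P4 libraries and 3.86 to 4.87 in the PBS OIL libraries. Of 15 adipocyte markers 1 fell with DOX (median -1.11), and 5 fell and 1 rose with PBS (median -3.14). The part of smooth muscle cells and leukocytes in the members' values was not tested, and with the adipocyte level as a covariate 3 members were called with DOX and 13 with PBS. The shares of all tested genes called with that covariate are not given here. In the PBS arm the adipocyte level did not overlap between P4 and OIL, so it cannot be told apart from P4 there.

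Against the median member, P4 left 2 departures in the DOX arm, 1 each way (12.3% of all tested genes called on this scale, 5.29% higher and 6.97% lower). In the PBS arm there were 6, 5 upward and 1 downward (17.2% of all tested genes, 12.2% higher and 4.94% lower). The departures of the DOX arm were Rps26, at 0.36 ± 0.11, and Rps27, at -0.40 ± 0.12, a small subunit protein with a zinc finger. The Rps26 call ended in 6 and the Rps27 call in 5 of the 6 fits in which a library of the arm was missing. DESeq2 called 12 there, the fit without PBS OIL replicate 1 called 12, and the fit with the replicate number as a block called 0. The shares of all tested genes called in these fits are not given here. With PBS, Rps2 (0.62 ± 0.13), Rpl15 (0.45 ± 0.12), Rpl7a (0.43 ± 0.12), Rps26 (0.42 ± 0.11) and Rplp0 (0.37 ± 0.12) departed upward, and Rpl35a departed downward (-0.84 ± 0.20). These 6 remained without PBS OIL replicate 1, and Rpl9 joined them at -0.35 ± 0.09. Over the 6 fits in which a library of the arm was missing, the call ended in 3 for Rpl7a and 2 for Rps26. It ended in 1 for Rpl15 and in 0 for Rps2. With DOX these did not pass except Rps26, at 0.35 ± 0.13 for Rps2, 0.31 ± 0.12 for Rpl15, 0.29 ± 0.12 for Rpl7a and 0.32 ± 0.12 for Rplp0, and the difference between the arms was not called for any member. Rps2 relative to its library stood at -0.29, -0.38 and -0.38 in the PBS P4 libraries and at -1.01, -0.92 and -0.97 in the PBS OIL libraries. The P4 and E2 comparisons of an arm share their OIL libraries. Rpl35a, a large subunit protein, varied more between libraries. It stood at -1.40, -1.42 and -2.22 in the PBS P4 libraries and at -0.80, -0.77 and -0.80 in the PBS OIL libraries. Without PBS P4 replicate 3 its departure was -0.62 and lost its call. It was also low in DOX E2 replicates 2 and 3, at -1.55 and -1.65, and in DOX OIL replicate 2, at -1.40.

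**Figure D4:**
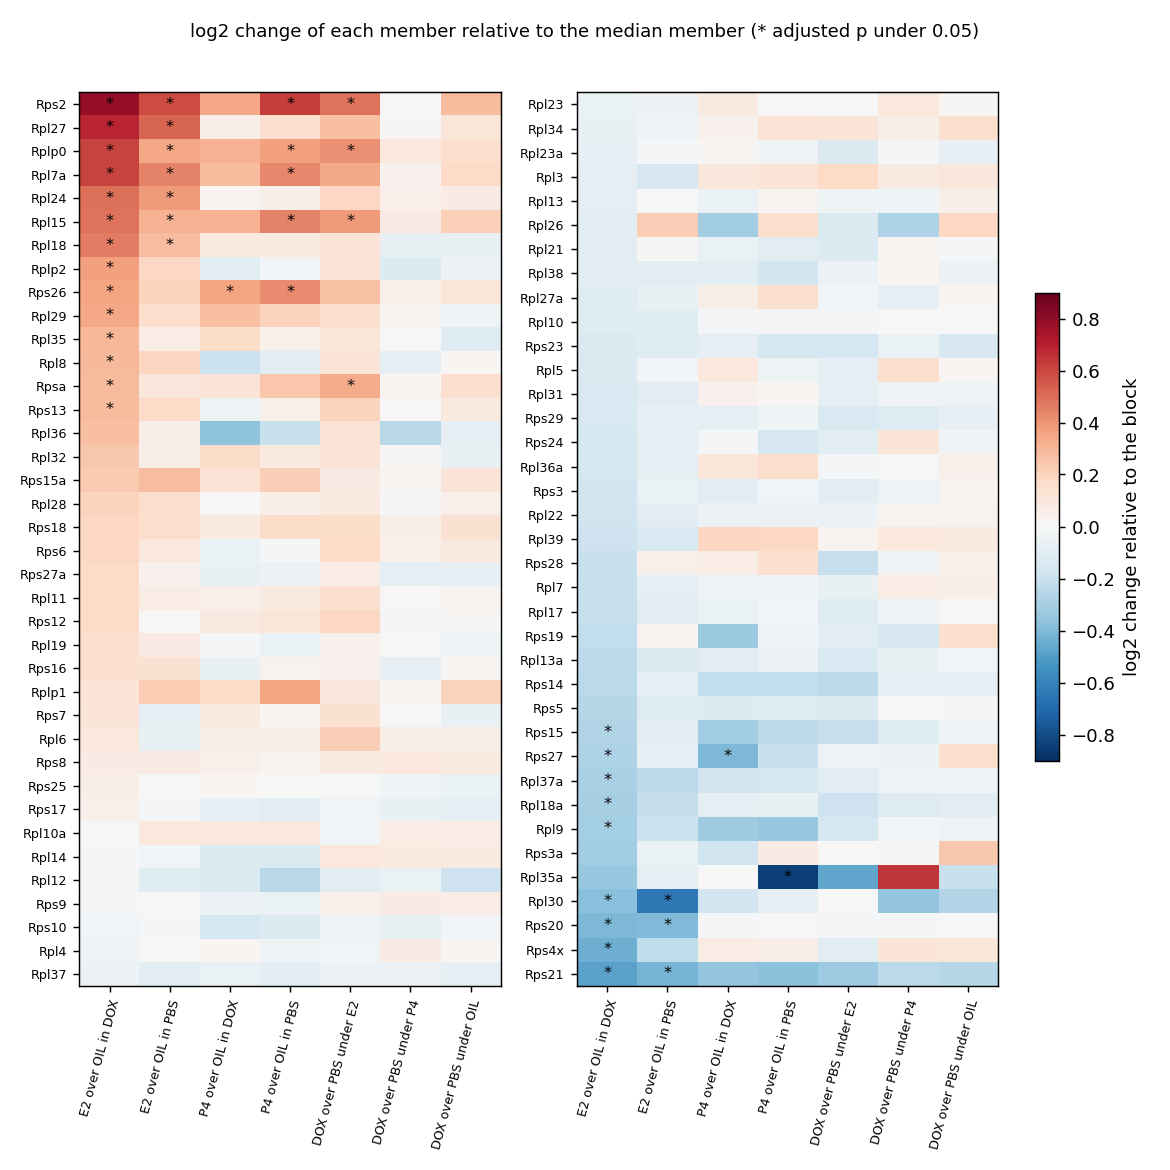
log2 change of 75 members relative to the median member (colour, red higher and blue lower) in 7 comparisons, ordered by the E2 comparison of the DOX arm. Stars mark an edgeR adjusted p under 0.05: 23 and 10 in the E2 columns, 2 and 6 in the P4 columns, 4 for DOX under E2 and none for DOX under P4 or OIL.

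By the edgeR test members changed with DOX where E2 was given, and none was called under P4 or OIL. Under E2, 9 members rose with DOX and none fell (11.8%, against 41% of all tested genes called, 20.4% higher and 20.6% lower), with a median of 0.12 beside 0.02 over all genes. They were Rps2 (0.62 ± 0.15), Rplp0, Rpl15, Rpl7a (0.47 ± 0.12), Rpsa, Rpl27 (0.40 ± 0.13), Rps26 (0.39 ± 0.14), Rpl6 (0.35 ± 0.12) and Rps13 (0.33 ± 0.13). The lowest were Rpl35a (-0.32 ± 0.25), Rps21 (-0.20 ± 0.17), Rps14 (-0.11 ± 0.16) and Rps15 (-0.08 ± 0.15), none of them called. Rplp0 had 2240.0, 1963 and 1768 CPM in the DOX E2 libraries and 1479.6, 1274 and 1346 CPM in the PBS E2 libraries, which did not overlap, a log2 change of 0.54 ± 0.14 (edgeR adjusted p = 0.00534). Rpl15 had 486, 419 and 390.2 CPM in the DOX E2 libraries and 302, 306 and 299 CPM in the PBS E2 libraries, a log2 change of 0.51 ± 0.10 (edgeR adjusted p = 0.00126). Rpsa, a small subunit protein also known as a laminin receptor, had 1979, 1803 and 1661 CPM in the DOX E2 libraries and 1351, 1302 and 1313 CPM in the PBS E2 libraries, a log2 change of 0.46 ± 0.13 (edgeR adjusted p = 0.0119). With the counts of its pseudogene row added to the gene, Rpsa lost the call, at 0.32. The count of 9 became 4 without DOX E2 replicate 1, and 18 without PBS OIL replicate 1, which lies outside this comparison too. In the latter fit 42.1% of all tested genes were called, 20% higher, and the share in the former is not given here. Against the median member 4 departed upward (22.4% of all tested genes called on this scale, 5.04% higher), namely Rps2 (0.49 ± 0.13), Rplp0 (0.41 ± 0.12), Rpl15 (0.39 ± 0.12) and Rpsa (0.33 ± 0.11). These calls ended in 3 (Rps2), 4 (Rplp0), 5 (Rpl15) and 6 (Rpsa) of the 6 fits in which a library of the comparison was missing. The number was 0 without PBS E2 replicate 2 and 13 by DESeq2, and the shares of all tested genes in these fits are not given here.

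Fat cell markers moved with the same libraries. All 15 adipocyte markers fell with DOX under E2, with a median log2 change of -4.23, and their mean log2 CPM was 0.23 to 3.65 in the DOX E2 libraries and 4.14 to 7.29 in the PBS E2 libraries. In the other groups it was 2.02 to 4.38 (DOX P4), 2.32 to 4.46 (PBS P4), 4.03 to 5.20 (DOX OIL) and 5.26 to 6.78 (PBS OIL). Of the 8 epithelial markers 3 rose and none fell under E2 with DOX, with a mean log2 CPM of 6.61 to 7.01 in the DOX E2 libraries and 5.97 to 6.51 in the PBS E2 libraries. With the adipocyte level as a covariate 1 member was called for DOX under E2, as lower, and the median was -0.12. The share of all tested genes called there is not given here. For E2 against OIL in the DOX arm the median was -0.19 with that covariate. The adipocyte level of the DOX E2 libraries did not overlap that of the PBS E2 or the DOX OIL libraries. These fits therefore cannot tell the adipocyte level apart from the treatment. Under E2 against OIL 4 epithelial markers rose and none fell in the DOX arm, and 1 rose and 1 fell in the PBS arm. The part of epithelial cells in these results was not tested.

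For DOX against PBS without E2, under OIL or P4, the edgeR test called no member. Under OIL all 76 members were lower with DOX, with a median of -0.29, and 37 had an unadjusted p under 0.05. In this comparison 0.0129% of all tested genes were called, and DESeq2 and limma voom called 0 members. Rpl30 (-0.60 ± 0.21), Rps21 (-0.57 ± 0.17), Rpl12 (-0.50 ± 0.15) and Rpl35a (-0.50 ± 0.25) had the lowest values, and Rps2 (-0.02 ± 0.15), Rpl15 (-0.08 ± 0.10), Rps3a (-0.08 ± 0.23) and Rplp1 (-0.10 ± 0.15) the highest. Without PBS OIL replicate 1 the median was -0.08, and 62 members were negative. Departures under OIL numbered 0 with edgeR, where 0% of all tested genes were called on that scale, 1 member had an unadjusted p under 0.05, and DESeq2 called 0 and voom 8. Under P4 the median was -0.11 and 73 members were negative, with 3 at an unadjusted p under 0.05. No gene of the whole table was called there (0%), and DESeq2 and voom called 0 members. The highest was Rpl35a at 0.52 ± 0.25, and the lowest were Rpl30 (-0.46 ± 0.21), Rpl26 (-0.40 ± 0.27), Rps21 (-0.36 ± 0.17) and Rpl36 (-0.36 ± 0.15). Single libraries set some of these values. Rpl26 had 223, 264 and 259 CPM in the DOX P4 libraries and 272, 441 and 271 CPM in the PBS P4 libraries, and its value was -0.13 without PBS P4 replicate 2. Replicate 2 also held the highest Rpl26 level in the DOX E2, PBS E2 and DOX OIL groups, at 391, 416 and 395 CPM. Without PBS P4 replicate 3, Rpl35a was at 0.29. Departures under P4 were 0 by edgeR (0% of all tested genes), DESeq2 and voom, with 2 at an unadjusted p under 0.05.

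The response to E2 differed between the arms for 22 members (28.9%, against 22.9% of all tested genes), and all 22 were higher in the DOX arm, where 10.1% of all tested genes were called higher. All 76 interaction terms were positive, with a median of 0.43 beside 0.01 over all genes. The highest were Rpl30 at 0.72 ± 0.30, which was not called, and Rplp0 (0.69 ± 0.19), Rpl35 (0.67 ± 0.20) and Rpl36 (0.65 ± 0.22), which were. The lowest were Rpl26 (0.13 ± 0.39), Rpl35a (0.18 ± 0.36), Rps19 (0.19 ± 0.25) and Rps28 (0.20 ± 0.23). On the scale of the median member none of the 76 was called, with none at an unadjusted p under 0.05, against 17.3% of all tested genes. DESeq2 also called 0 departures and voom 17. The shift was smaller without 1 library. Without PBS OIL replicate 1 the median was 0.20 and 4 members were called (Rpl15, Rplp0, Rplp2 and Rpsa), where 18.1% of all tested genes were. The count was 1 without DOX E2 replicate 1 and 55 without PBS OIL replicate 2, and 0 with the adipocyte covariate. For P4 the interaction called no member and 1 gene of all (0.00645%). The median was 0.18, or -0.03 without PBS OIL replicate 1, and 1 member had an unadjusted p under 0.05, Rpl35a at 1.02 ± 0.36. Of all tested genes, 525 had an unadjusted p under 0.05 for this interaction. DESeq2 and voom called 0 there too.

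The 3 stalk proteins differed in their calls. Rplp0 is the scaffold on which the acidic proteins Rplp1 and Rplp2 are mounted. Under E2 in the DOX arm Rplp0 (0.66 ± 0.14) and Rplp2 (0.41 ± 0.11) rose, and Rplp1 was at 0.17 ± 0.15 without a call. With PBS none of the 3 was called, with Rplp0 at -0.03 ± 0.14, Rplp1 at -0.16 ± 0.15 and Rplp2 at -0.19 ± 0.11. The values were 0.12, 0.02 and -0.01 without PBS OIL replicate 1. The Rplp2 call ended with upper quartile scaling (0.19) and with total counts (0.10). Rplp1 had 1638, 1265 and 1214 CPM in the DOX E2 libraries and 1318, 1156 and 1179.7 CPM in the DOX OIL libraries, which overlapped.

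Rpl5 and Rpl11 form a particle with 5S rRNA that binds Mdm2, the ligase that degrades p53, when ribosome assembly is disturbed. Rpl5 had 1186, 1051 and 999 CPM in the DOX E2 libraries and 1069, 1056 and 1023 CPM in the PBS E2 libraries. Under OIL it had 1218, 1102 and 1107 CPM with DOX and 1759, 1081 and 1339.6 CPM with PBS, and the groups overlapped in both settings. With DOX, Rpl5 was at 0.04 ± 0.13 under E2, 0.04 ± 0.13 under P4 and -0.29 ± 0.13 under OIL, and Rpl11 at 0.27 ± 0.13, -0.11 ± 0.13 and -0.27 ± 0.13, none of them called. Both were called lower under E2 in the PBS arm (-0.41 ± 0.13 and -0.32 ± 0.13), and the calls ended without PBS OIL replicate 1, at -0.21 and -0.12. Of the 6 fits in which a library of the arm was missing, the Rpl5 call ended in 1 and the Rpl11 call in 5. With DOX the E2 values were -0.08 ± 0.13 for Rpl5 and 0.22 ± 0.13 for Rpl11, and neither was called.

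Rps6 is the small subunit protein that S6 kinase phosphorylates. Its E2 change was 0.23 ± 0.13 in the DOX arm and -0.29 ± 0.13 in the PBS arm, neither called, and the second was -0.10 without PBS OIL replicate 1. Rps27a, made as a fusion with ubiquitin, was at 0.23 ± 0.13 in the DOX arm and fell by 0.35 on the log2 scale in the PBS arm, a call that ended without PBS OIL replicate 1 (-0.15). Rpsa rose under E2 in the DOX arm (0.33 ± 0.13), without a call when scaled by upper quartile (0.11) or total counts (0.02), and was at -0.28 ± 0.13 in the PBS arm, which was not called (-0.07 without PBS OIL replicate 1).

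Of 10 rows for ribosomal proteins with other names and for paralogs of ribosomal proteins, 7 had enough counts to be tested. Fau and Gnb2l1 (Rack1) encode proteins of the small subunit under other symbols, and both lay within the range of the members. Fau had 554, 508 and 490 CPM in the DOX E2 libraries and 513, 431 and 465 CPM in the DOX OIL libraries, a change of 0.14 ± 0.14, and in the PBS arm it fell by 0.42 on the log2 scale. It had 435, 436 and 430.0 CPM in the PBS E2 libraries and 769, 460.4 and 507 CPM in the PBS OIL libraries, and without PBS OIL replicate 1 it was at -0.16 and not called. Gnb2l1 was at 0.12 ± 0.13 in the DOX arm and -0.30 ± 0.13 in the PBS arm, neither called, the second at -0.12 without that library.

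Of 4 paralogs tested, 3 rose under E2 in both arms, with fitted changes above that of any member. Rps27l, a paralog of Rps27 known as a p53 target, had 167, 146 and 125 CPM in the DOX E2 libraries and 98.0, 74.4 and 79.6 CPM in the PBS E2 libraries. Under OIL it had 48.9, 54.9 and 47.4 CPM with DOX and 51.3, 41.6 and 42.7 CPM with PBS, so each E2 library lay above each OIL library. It rose under E2 by 1.53 ± 0.12 in the DOX arm and 0.90 ± 0.12 in the PBS arm, and its interaction was called (0.64 ± 0.17, edgeR adjusted p = 0.014). Rps27 itself was not called for E2 in the DOX arm and fell in the PBS arm by 0.48 on the log2 scale, and without PBS OIL replicate 1 it was at -0.23 and not called. Rpl36al, a paralog of Rpl36a, rose by 1.39 ± 0.14 and 0.75 ± 0.14 in the DOX and PBS arms, with a called interaction (0.64 ± 0.19, edgeR adjusted p = 0.025) that ended without PBS OIL replicate 1, at 0.44. Rpl7l1, a paralog of Rpl7 that acts in large subunit assembly, had 259, 252 and 248 CPM in the DOX E2 libraries and 88.6, 72.5 and 80.8 CPM in the DOX OIL libraries, and rose by 1.65 ± 0.12 in the DOX arm and 1.40 ± 0.12 in the PBS arm. Rpl22l1 was at -0.09 ± 0.13 in the DOX arm and fell by 0.34 on the log2 scale in the PBS arm, a call that ended without PBS OIL replicate 1 (-0.23). With DOX under E2, Rps27l (0.80 ± 0.12), Rpl36al (0.54 ± 0.13), Rpl22l1 (0.38 ± 0.13) and Rpl7l1 (0.33 ± 0.11) rose, and Rpl22l1 was at 0.23 without DOX E2 replicate 1 and not called. P4 raised Rps27l in both arms (0.47 ± 0.12 with DOX, 0.58 ± 0.12 with PBS) and Rpl7l1 in the PBS arm (0.37 ± 0.12). Rpl3l, Rpl39l and Rpl10l, with 58, 7 and 0 counts over all libraries, were not tested.

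**Figure D5:**
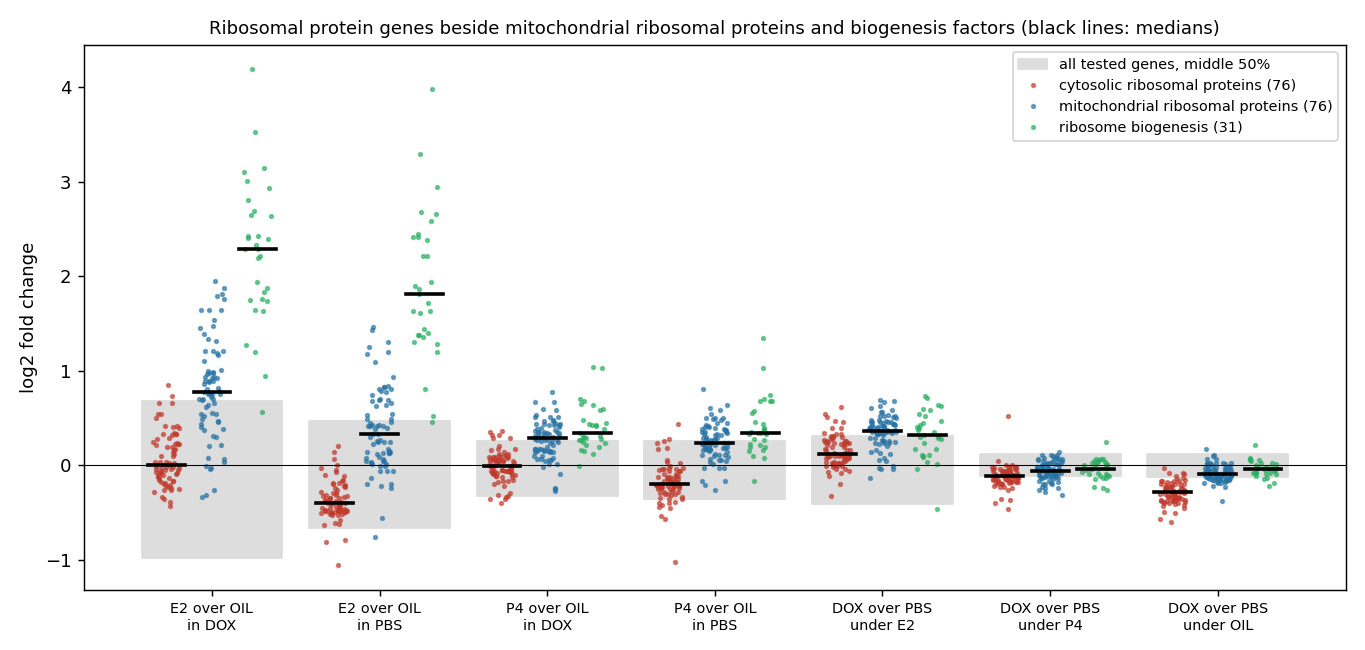
log2 fold change of the 76 members beside 76 mitochondrial ribosomal protein genes and 31 ribosome biogenesis genes in 7 comparisons, with black lines for medians and grey boxes for the interquartile range of all tested genes. Under E2 the biogenesis genes lie at medians of 2.29 (DOX arm) and 1.81 (PBS arm), the mitochondrial genes at 0.78 and 0.33 and the cytosolic members at 0.00 and -0.40.

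Genes whose products build ribosomes rose under E2, where most of the 76 members did not. All 31 ribosome biogenesis genes rose under E2 in both arms, with a median of 2.29 in the DOX arm and 1.81 in the PBS arm. Of all tested genes 35.1% were higher in the DOX arm and 29.6% in the PBS arm. Pes1, which acts in large subunit processing, rose by 1.65 ± 0.08 in the DOX arm, Wdr43, a small subunit processome protein, by 2.33 ± 0.12, and Ddx21, a nucleolar helicase, by 3.29 ± 0.20 in the PBS arm. The 18 chaperones and subunit maturation factors rose as well, 18 in the DOX arm (median 1.61) and 17 in the PBS arm (1.27). Tsr1 and Ltv1, which act on the maturing small subunit, rose by 2.91 ± 0.14 and 2.73 ± 0.13 in the DOX arm and by 2.60 ± 0.14 and 2.25 ± 0.13 in the PBS arm. Of 25 other translation factors 24 rose in each arm, among them the helicase Eif4a1 (2.82 ± 0.14 with DOX, 2.36 ± 0.13 with PBS). Mitochondrial ribosomal proteins lay between, with 65 of 76 higher and 2 lower in the DOX arm (median 0.78) and 41 higher and 3 lower in the PBS arm (median 0.33). Mrpl17, a protein of the large mitochondrial subunit, rose by 1.76 ± 0.10 in the DOX arm and 1.43 ± 0.10 in the PBS arm.

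Under E2 against OIL, the translation factors whose messages carry a TOP motif had medians nearer to that of the members than the other lists of ribosome and translation genes. Of 16 such genes 9 rose and 3 fell under E2 in the DOX arm (median 0.29), and 4 rose and 6 fell in the PBS arm (median -0.19). Hnrnpa1, an RNA-binding protein, rose by 1.22 ± 0.09 in the DOX arm and 0.61 ± 0.09 in the PBS arm, while Eif3f, a subunit of the initiation factor eIF3, fell by 0.59 on the log2 scale in the PBS arm. With DOX under E2, 10 of the 16 rose and none fell (median 0.36), among them the poly(A)-binding protein Pabpc1 (0.76 ± 0.11), beside medians of 0.12 for the members and 0.11 for the regulators. Of 20 regulators of ribosomal protein synthesis 15 rose and 3 fell under E2 in the DOX arm, and 12 rose and 4 fell in the PBS arm. Larp1, the protein that binds TOP messages, rose by 1.68 ± 0.11 and 1.56 ± 0.11 in the DOX and PBS arms, and Tsc1, a brake on mTORC1, fell by 0.90 on the log2 scale in the PBS arm.

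With DOX under E2, 58 of the 76 mitochondrial ribosomal proteins rose and none fell (median 0.37), and 17 of 31 biogenesis genes rose and 1 fell (median 0.32), beside 9 of the 76 cytosolic members with a median of 0.12. Of all tested genes 20.4% were higher and 20.6% lower. Npm1, a nucleolar chaperone, rose by 0.74 ± 0.12, and Mrps27 by 0.58 ± 0.08. Under P4 the medians of these lists stood above those of the members, which were -0.01 in the DOX arm and -0.20 in the PBS arm. With DOX, 17 of 31 biogenesis genes (median 0.34) and 35 of 76 mitochondrial genes (median 0.29) rose and none fell. With PBS the numbers that rose were 19 (median 0.35) and 32 (median 0.24), and none fell. Of all tested genes 14.7% were higher under P4 in the DOX arm and 16.2% in the PBS arm. Ddx21 rose under P4 by 1.03 ± 0.19 in each arm. The PBS arm without PBS OIL replicate 1 had 31 biogenesis genes higher under E2 (median 1.95) and 16 under P4 (0.39). The mitochondrial genes then had 48 higher and 2 lower under E2 (0.40) and 39 higher under P4 (0.33), and the TOP class 6 higher and 6 lower under E2 (-0.07). Differences between the lists were not tested.

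Length and base composition tracked the members' E2 changes weakly. Across the 76 members the Spearman correlation of the E2 change with the GC share of the coding sequence was 0.34 in the DOX arm and 0.35 in the PBS arm, and with coding length 0.20 and 0.18. With the number of pseudogene copies it was 0.05 and 0.04. For the change with DOX under OIL and under P4, the correlation with coding length was 0.35 and 0.34. With GC it was -0.01 and -0.35 there. The members of the large and small subunits had medians of -0.02 and 0.03 under E2 in the DOX arm, and of -0.41 and -0.40 in the PBS arm. Adding the counts of pseudogene rows to their parent genes left the departures of Rps2, Rpl27, Rplp0, Rpl7a and Rps21 under E2 called in the arms where they had been. Of the calls and departures of named members over all comparisons, 55 remained and 5 ended, among them Rpsa for DOX under E2. The copies of Rpl15 held counts of 52.6% of the parent's, and its values with them added are not given here.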

How the data were processed

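Total RNA of whole uterus was sequenced in 18 libraries, 3 in each of 6 groups. The authors deposited 1 table of read counts per gene, whole numbers with no normalization. Per the submitters' processing notes, reads were trimmed with Trimmomatic 0.36, aligned to GRCm38 with HISAT2 2.1.0 and handled with SAMtools 1.6 and StringTie 1.3.4d. DESeq2 1.18.1 is also listed. Annotation, counting options and strand setting are not given in the sources.

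From these counts edgeR 4.0.16 (R 4.3.3) fitted 1 robust quasi-likelihood model with a coefficient per group, TMM factors and 12 residual degrees of freedom. The filter (filterByExpr) kept 15494 of 22238 genes, Benjamini-Hochberg adjustment ran over all of them, and calls are at an adjusted p under 0.05. Fold changes are log2, and log2 CPM used a prior count of 2. Departures used the same test with scaling on the 76 members. The procedure was tested on simulated counts. Libraries of a group differed by more than sampling noise, by a chi-square test of their counts over genes with at least 20 counts (15.7 to 69.4 per degree of freedom), so none is a copy. Total counts ran from 18042357 to 39783785. Pseudogene copies were found with blastn 2.17.0+.

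The members, the gene lists and the tests were chosen with earlier results of these data known. Members named are the 4 highest and 4 lowest of each comparison and of the departures, the stalk proteins, Rpsa, Rpl5, Rpl11, Rps6 and Rps27a. Genes outside the symbol rule are named where tested, and from each other list genes among its 4 smallest p-values. Alternatives were DESeq2 1.42.0, limma voom 3.58.1, other scalings and filters, a replicate block, an adipocyte covariate, only the groups compared, and leaving out each library. A few results are not reported here.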

Additional observations from a re-analysis of the deposited data

Results flagged for a closer look

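For 22 members the response to E2 differed between the DOX and PBS arms by a test of the difference itself (edgeR interaction term, adjusted p under 0.05), and each was higher in the DOX arm. In the large subunit these were Rplp0 (log2 difference 0.69), Rpl35 (0.67), Rpl36 (0.65), Rpl32 (0.63), Rpl18 (0.62), Rpl29 (0.61) and Rplp2 (0.61). They were followed by Rpl15 (0.59), Rpl27 (0.59), Rpl6 (0.59), Rpl7a (0.58), Rpl11 (0.54), Rpl24 (0.54), Rpl8 (0.53) and Rpl3 (0.50). In the small subunit they were Rps2 (0.64), Rps7 (0.63), Rps12 (0.62), Rpsa (0.62), Rps26 (0.59), Rps27a (0.57) and Rps13 (0.54). Without PBS OIL replicate 1 the call remained for Rplp0 (0.52), Rpl15 (0.46), Rplp2 (0.40) and Rpsa (0.39). None of the 22 was called on the scale of the median member.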

How the results depend on the processing

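None of the 34 called member values named by the rule changed sign under the alternatives run, though many lost a call. Of the 103 named values without a call 39 did under at least 1 alternative, 32 of them when a library was left out and 12 with total counts. Among them were Rpl15 for DOX under OIL, at 0.04 without PBS OIL replicate 1, and for E2 in the PBS arm Rpl27 and Rpl7a, at -0.05 and -0.12 with total counts. A filter of 1 CPM in 3 or more libraries moved no count of members by over 1.5 times, and scaling on the geometric mean of the members, run for the departures alone, moved none of those counts so far. The counts of called members became, with DESeq2, 5 for P4 in the DOX arm, and with DESeq2's size factors in edgeR 2. With voom they were 29 for DOX under E2 and 10 for P4 in the DOX arm. With total counts they were 4 for DOX under E2, 43 for E2 in the DOX arm, 5 for the E2 interaction, 3 for P4 in the DOX arm and 14 for P4 in the PBS arm. Upper quartile scaling gave 13 for the E2 interaction. The E2 medians became -0.31 (DOX arm) and -0.58 (PBS arm) with total counts and -0.22 and -0.60 with upper quartile scaling. Without a filter the E2 interaction had 11 calls. With only the groups compared in the fit, calls were 8 for E2 in the PBS arm, 2 for the E2 interaction, 8 for P4 in the DOX arm and 1 for P4 in the PBS arm. With pseudogene rows added to their parents, an alternative chosen after seeing the data, P4 in the DOX arm had 2. With the adipocyte covariate calls were 1 for DOX under E2, 0 for the E2 interaction, 3 for P4 in the DOX arm and 13 in the PBS arm. The medians were then -0.12 for DOX under E2, -0.19 for E2 in the DOX arm and 0.25 for the E2 interaction. For DOX under E2 and for E2 in the DOX arm, the adipocyte level and the treatment cannot be told apart, as described above. Shares of all tested genes for these alternatives are given only where stated above. The causes were not tested.

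Departures from the block became, with DESeq2, 13 for DOX under E2, 42 and 19 for E2 in the DOX and PBS arms, and 12 and 14 for P4 in those arms. Voom gave 36 for DOX under E2, 8 for DOX under OIL, 48 and 38 for E2, 17 for the E2 interaction, and 17 and 28 for P4. Without a filter they were 14 for E2 and 0 for P4 in the DOX arm, and with only the groups compared 0 for E2 in the PBS arm and 5 and 0 for P4 in the DOX and PBS arms. The adipocyte covariate gave 1 for DOX under E2 and 4 for P4 in the DOX arm. The shares of all tested genes called in these fits are not given here.

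The ranges that follow are over fits without 1 library of the groups compared. The shares of all tested genes called in these fits are given only where stated above. Called members ranged from 4 to 9 for DOX under E2, and 11 to 16 and 17 to 63 for E2 in the DOX and PBS arms. They ranged from 0 to 2 and 2 to 35 for P4, and 1 to 55 for the E2 interaction. Leaving out PBS OIL replicate 1 moved counts past these ranges in comparisons that do not hold it. It gave 18 for DOX under E2. In the DOX arm it gave 21 higher and 7 lower for E2, and 6 higher and 4 lower for P4. Departures ranged from 0 to 5 for DOX under E2, 14 to 19 and 5 to 13 for E2, and 0 to 1 and 2 to 9 for P4. Without PBS OIL replicate 1 they were 9 up and 2 down for DOX under E2. In the DOX arm they were then 24 up and 15 down for E2, and 6 up and 6 down for P4. Medians ranged from 0.04 to 0.19 for DOX under E2, -0.15 to -0.06 under P4 and -0.44 to -0.083 under OIL. They were -0.07 to 0.07 and -0.54 to -0.18 for E2, -0.05 to 0.05 and -0.34 to 0.027 for P4, 0.20 to 0.58 for the E2 interaction and -0.032 to 0.33 for the P4 interaction.

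The replicate numbers did not pair the libraries consistently across the comparisons. Across the comparisons, same-numbered libraries had correlations of -0.282 to 0.365, and each library correlated best with its own number for DOX under OIL but for no other comparison, a hint from the data and not the design. With the replicate block, departures for P4 in the DOX arm were 0, and 3 single members named lost a call. With 3 libraries a group, fold changes of members had a median SE of 0.14 on the log2 scale.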
